A study of Mus musculus with 2 samples.

Results

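The cells described here are a set of mesenchymal cells from the tissue around the e13.5 mouse eye, chosen because they held transcripts of *Aldh1a2*, *Six2*, *Foxf2* and *Pgf*. A cell was a member if it held at least 1 unique molecular identifier (UMI, one captured transcript) in at least 4 of the 6 mesenchyme genes *Col1a1*, *Col1a2*, *Col3a1*, *Pdgfra*, *Prrx1* and *Twist1*, and in at least 2 of the 4 selecting genes *Aldh1a2*, *Six2*, *Foxf2* and *Pgf*. A cell with 2 or more of *Tfap2b*, *Matn4*, *Ddit4l* and *Tmem132c*, or 2 or more of *Meox1*, *Scx*, *Msc* and *Penk*, was not a member. This rule found 425 members among 3535 mesenchyme cells, 11893 kept cells and 12793 deposited barcodes.

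The samples were 2 libraries of single cells made on the 10x platform, with 1 library per genotype and 3 pooled samples in each. The control library held *Myrf* fl/fl eyes, and the mutant library held Rx>cre *Myrf* fl/fl eyes. Both genotypes carried the floxed *Myrf* allele, and in the mutant Cre is made from an *Rx* transgene, which is active in the eye field lineage that forms retina and retinal pigment epithelium (RPE). Cornea, lens and optic nerve had been taken off the eye cups before dissociation. The control library contributed 209 members and the mutant library 216. Because each genotype is a single library, the variation between animals is unknown and no difference here carries a test. The 95% intervals in this text cover counting error only.

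Periocular mesenchyme surrounds the optic cup and comes from neural crest and cranial mesoderm. It gives rise to the sclera, the choroid stroma, the corneal stroma and endothelium, pericytes of the eye's vessels and the connective tissue of the eye muscles. Its development depends on retinoic acid made by enzymes that include ALDH1A2, and on transcription factors such as FOXC1. SIX2 and FOXF2 are transcription factors of craniofacial mesenchyme, *Pgf* encodes placental growth factor, a ligand of the VEGF family, and *Has2* encodes an enzyme that makes hyaluronan.

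To show what lies just before the genes that chose the cells, the 250 bases before the start of *Aldh1a2*, *Six2* and *Foxf2* are given 5′ to 3′ on the strand of each gene, from RefSeq on GRCm38.p6. The window of *Emcn*, a gene outside the rule with one of the larger differences in the members, is set beside them. The RefSeq starts of *Six2* and *Emcn* differ from the GENCODE starts of the gene positions used here, by less than the length of the window. Capitals mark the CCAAT box and the GC box GGGCGG, each searched on both strands (so also as ATTGG and CCGCCC), with no overlap between the matches. The windows are chr9:71215539-71215788 on the plus strand for *Aldh1a2*, chr17:85688255-85688504 on the minus strand for *Six2*, chr13:31625566-31625815 on the plus strand for *Foxf2* and chr3:137340828-137341077 on the plus strand for *Emcn*.
Aldh1a2: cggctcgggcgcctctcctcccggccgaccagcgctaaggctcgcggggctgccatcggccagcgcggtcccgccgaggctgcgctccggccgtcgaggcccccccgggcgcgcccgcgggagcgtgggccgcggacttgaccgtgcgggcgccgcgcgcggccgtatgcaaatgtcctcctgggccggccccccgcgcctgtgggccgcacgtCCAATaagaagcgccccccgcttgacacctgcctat
Six2: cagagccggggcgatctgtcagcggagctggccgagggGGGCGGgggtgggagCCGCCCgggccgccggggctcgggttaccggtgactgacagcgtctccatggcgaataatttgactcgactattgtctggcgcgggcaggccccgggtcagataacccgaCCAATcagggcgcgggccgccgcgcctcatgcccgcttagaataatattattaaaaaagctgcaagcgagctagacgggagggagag
Foxf2: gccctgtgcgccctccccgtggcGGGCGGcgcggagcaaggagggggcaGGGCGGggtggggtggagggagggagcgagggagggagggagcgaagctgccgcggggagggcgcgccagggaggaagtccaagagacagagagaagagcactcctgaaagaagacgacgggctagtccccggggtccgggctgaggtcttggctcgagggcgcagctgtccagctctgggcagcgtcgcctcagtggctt
Emcn: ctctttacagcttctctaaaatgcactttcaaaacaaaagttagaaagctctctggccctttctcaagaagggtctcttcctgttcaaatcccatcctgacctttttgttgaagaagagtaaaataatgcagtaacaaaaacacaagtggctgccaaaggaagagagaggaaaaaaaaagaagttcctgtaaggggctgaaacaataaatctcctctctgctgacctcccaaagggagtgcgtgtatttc

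The 3 selecting genes shown had CpG-rich windows, with 40 CG dinucleotides for *Aldh1a2*, 26 for *Six2* and 21 for *Foxf2*, against 1 for *Emcn* and a median of 6 over the 32851 windows of the table. CCAAT occurred once each before *Aldh1a2* and *Six2*, and in 33.8% of all windows. GGGCGG occurred 2 times each before *Six2* and *Foxf2*, and in 32.7% of all windows. A match to these letters describes the sequence and is not evidence of a bound site.

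The members were well covered cells. Their median depth was 12906 UMIs in control and 12075.5 UMIs in mutant cells, close to the 13850 and 12630.5 UMIs of the other mesenchyme, and their shallowest cells held 3631 and 4274 UMIs. Haemoglobin took 0.0342% of the members' summed UMIs in control and 1.26% in mutant cells, and its genes were left out of the genes named by size. The mutant sum rests on few cells. The median share per member was 0.0345% in control and 0.0675% in mutant cells, and 0 control and 4 mutant members were over 1%. The libraries shared 72 barcode sequences, and none of these belonged to a member. *Myrf* itself gave 4 UMIs in control and 3 UMIs in mutant members, which is too few for any comparison between the libraries.

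Within mesenchyme the members were 1 of 5 classes. In the control library, 612 cells had genes of the *Tfap2b* set, 173 had genes of the *Scx* and *Meox1* set, 240 had no set and 307 had 2 or more sets at once. The corresponding numbers in the mutant library were 799, 246, 298 and 435. Many of the mixed cells also held the selecting genes: 447 control and 548 mutant mesenchyme cells had 2 or more of them, and 209 and 216 of these were members. In the control library, 91 of the removed cells held the *Tfap2b* set, 124 the *Scx* and *Meox1* set and 23 both, and in the mutant library 123, 174 and 35. The 425 members are the cells of that larger number that had few transcripts of the other sets.

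Members made up 13.6% of the control mesenchyme (95% Clopper-Pearson interval 11.9 to 15.4%, 209 of 1541 cells). The mutant share was 10.8% (9.50 to 12.3%, 216 of 1994 cells). The difference was -2.73 percentage points, with a Newcombe interval of -4.94 to -0.56 points. Without the exclusion of cells holding genes of the other sets, the mutant share was 0.947 times the control share, against 0.799 times with it. As a share of all kept cells, members were 3.79% in control and 3.39% in mutant cells, a difference of -0.398 points with an interval of -1.08 to 0.27 points. Cells were pooled before the libraries were made, so the spread between eyes behind these shares was not measured.

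Most members held more than the minimum of the selecting genes. In the control library, 79 members held exactly 2 of the 4, 84 held 3 and 46 held all 4. The mutant counts were 98, 76 and 42. *Pgf* was the most frequent, with a UMI in 90.9% of control and 88.4% of mutant members, followed by *Six2* with 80.4% and 84.7%. *Aldh1a2* was found in 56.9% and 57.9% of members and *Foxf2* in 56.0% and 43.1%. The commonest pair without the other genes was *Six2* with *Pgf*, in 41 control and 50 mutant members. As a background level, red blood cells held *Pgf* in 0 of 203 control cells, which allows a share of up to 1.80% (Clopper-Pearson), and in 1.28% of the mutant cells, and *Aldh1a2* in 0.985% and 0.641%. Their median depth was 22841 and 22723.5 UMIs, deeper than the members.

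The selecting genes were found in the same cells more often than in the rest when all mesenchyme cells, members included, were brought to 3000 UMIs. *Pgf* was detected in 48.8% of the 80 control mesenchyme cells with *Foxf2* and in 12.2% of the 1438 cells without it. The mutant shares were 52.1% of 73 cells and 12.1% of 1902 cells. *Aldh1a2* was detected in 20.6% of control cells with *Pgf* and 6.06% of those without. The mutant values were 20.1% and 5.74%. *Six2* was detected in 37.9% of control cells with *Pgf* and 18.3% of those without, and in 43.1% and 16.2% of the mutant cells. It was also detected in 40.9% of control and 29.3% of mutant cells with *Meox1*, against 18.1% of the cells without *Meox1* in either library. *Foxf2* was detected in 18.2% and 14.1% of control and mutant cells with *Pgf*, and in 0.518% and 0.987% of those with *Meox1*.

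The levels of the 4 selecting genes follow from the rule and describe the members. *Pgf* stood at 238 CPM (UMIs per 1000000 UMIs summed over the cells of the class) in control members, with an exact Poisson interval of 221 to 256, and at 200 CPM (185 to 217) in mutant members. *Six2* was at 164 CPM in control members and 173 CPM in mutant members, *Aldh1a2* at 118 and 117 CPM, and *Foxf2* at 60.5 and 49.6 CPM. In the *Tfap2b* class, the *Scx* and *Meox1* class and the cells with no set, *Foxf2* stood between 0.83 and 4.54 CPM, *Pgf* between 8.14 and 20.0 CPM and *Aldh1a2* between 0 and 23.3 CPM. The mixed cells had intermediate levels of these 3 genes, for instance 133 and 130 CPM of *Pgf*. *Six2* was shared with the *Scx* and *Meox1* class, where it stood at 140 CPM in control and 96.7 CPM in mutant cells.

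*Has2* is the label gene that the rule did not use. The label was chosen with earlier results of these data known, so the level of *Has2* describes the members and is not separate support. It stood at 86.5 CPM (76.4 to 97.5) in control members and 83.0 CPM (73.1 to 94.0) in mutant members. Other mesenchyme had 29.8 and 27.6 CPM. The log2 ratio of members over other mesenchyme was 1.54 (1.32 to 1.75) in control and 1.59 (1.38 to 1.80) in mutant cells. Among the other classes *Has2* was highest in the mixed cells, at 72.5 and 57.3 CPM, then in the *Scx* and *Meox1* class, at 37.0 and 42.7 CPM, and lowest in the *Tfap2b* class, at 10.4 and 9.31 CPM. *Has2* was detected in 57.9% and 55.6% of members and in 0 of 203 control and 0.214% of mutant red blood cells. At 3000 UMIs per cell its share in members was 14.8% and 17.1%.

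**Figure D1:**
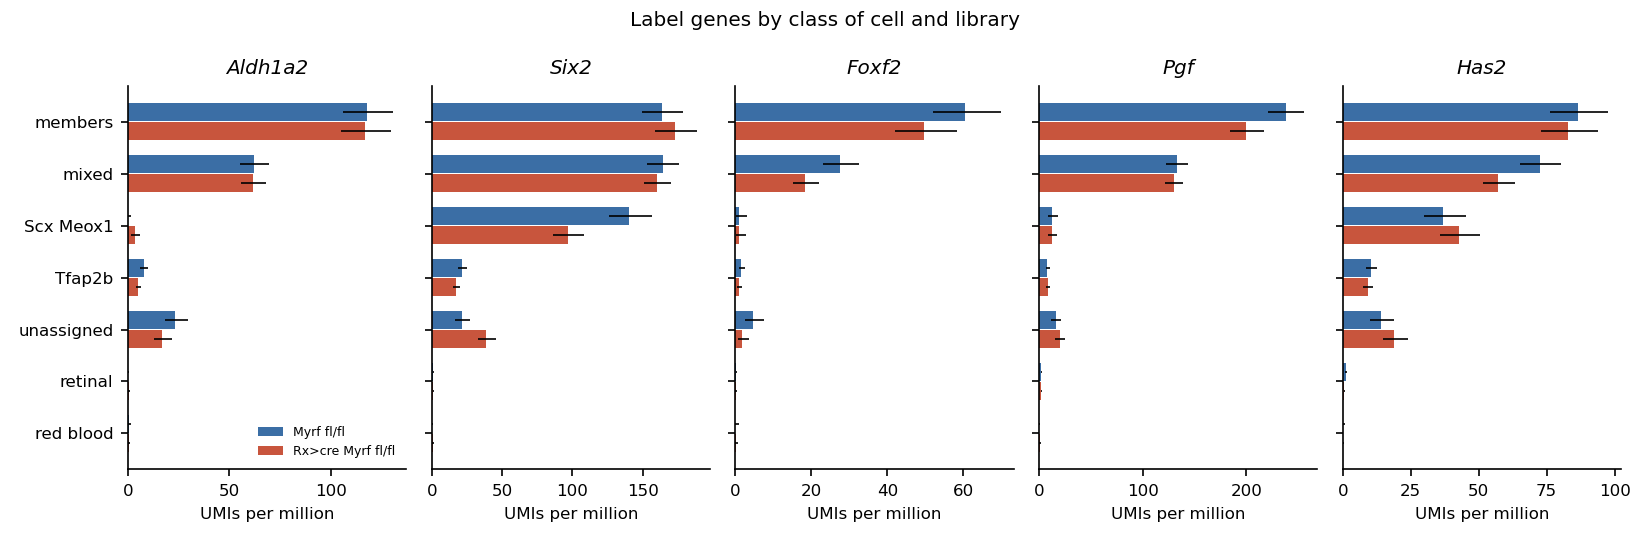
Level of the 4 selecting genes and *Has2* in 5 classes of mesenchyme, in retinal cells and in red blood cells, with 1 panel per gene, bars in CPM and exact 95% Poisson intervals. The first 4 panels show genes that chose the members, while *Has2*, a label gene outside the rule, reached 86.5 CPM in control members and 10.4 CPM in the *Tfap2b* class.

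Several genes outside the rule were graded with the number of selecting genes detected, among mesenchyme cells without the excluded sets. The cells just outside the limit held 1 selecting gene (106 control and 144 mutant cells) and those just inside held 2 (79 and 98 cells). *Has2* stood at 8.33 CPM in control cells with none of the 4, then at 19.7, 61.4, 95.9 and 111 CPM in cells with 1 to 4 of them. The mutant values were 13.3, 24.3, 67.7, 97.1 and 95 CPM. The median depth of these steps lay between 11089 and 13545.5 UMIs per cell.

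Other genes outside the rule, shown because they also differed between members and other mesenchyme, had steps of their own shape. *Cdh10*, which encodes a type II cadherin, went from 5.77 CPM with no selecting gene to 134 CPM with all 4 in the control, and from 1.67 to 76.0 CPM in the mutant library. *Emcn*, which encodes the sialomucin endomucin, went from 2.56 to 192 CPM and from 6.66 to 157 CPM. *Tbx18*, a T-box factor gene of mesenchyme and mural progenitors, stood at 14.1 and 13.8 CPM with 0 and 1 gene and at 112 CPM with all 4 in the control. Its mutant values were 13.3, 11.9 and 82.9 CPM. *Cxcl14*, a chemokine gene, was not graded with the rule. It stood at 323 CPM in control and 191 CPM in mutant cells with no selecting gene, and at 2.62 CPM or less in every step from 1 to 4 genes in both libraries, so its difference lay outside the limit of membership. A cell with more selecting genes is one in which the rule is met more fully, so the steps are a description of the chosen population and of its edge.

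**Figure D2:**
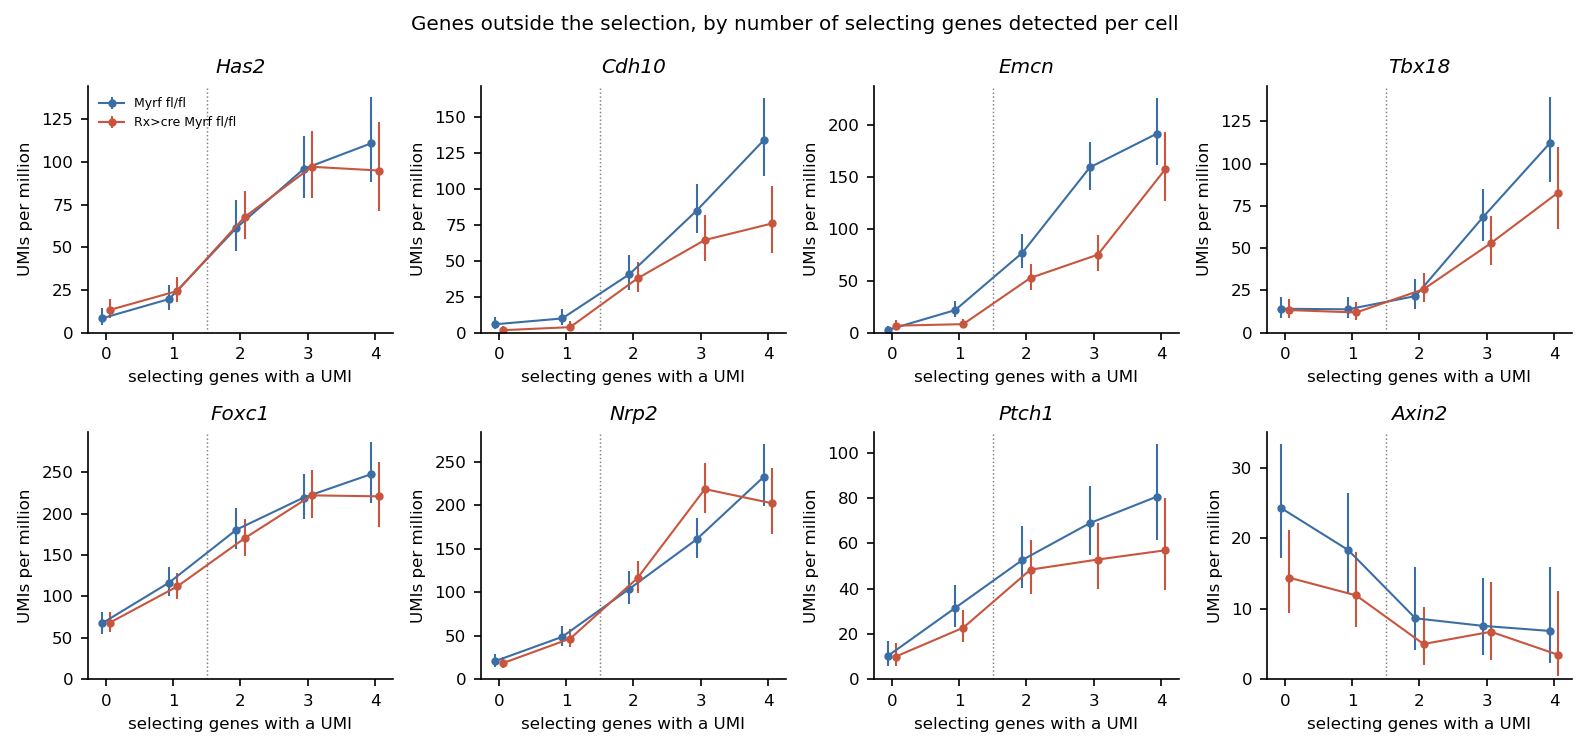
Level of 8 genes outside the rule, in CPM with exact 95% Poisson intervals, in mesenchyme cells grouped by how many of the 4 selecting genes held a UMI, with 1 line per library. The dotted line is the limit of membership, and *Has2*, *Cdh10*, *Emcn*, *Tbx18*, *Foxc1*, *Nrp2* and *Ptch1* lay higher with 4 than with 0 selecting genes in both libraries, while *Axin2* lay lower. All 8 genes differed at least 2-fold between members and other mesenchyme in both libraries, so their steps are not separate support.

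The 6 genes that defined mesenchyme were part of the rule, so they describe the members and do not place them. The position of the members in the tissue was not tested. *Foxc1*, a forkhead gene needed for the anterior segment, was higher in the members, at 212 CPM (196 to 229) in control and 198 CPM (182 to 214) in mutant cells, against 103 and 93.8 CPM in other mesenchyme. *Foxc2* was at 67.6 and 58.9 CPM and *Lmx1b* at 29.9 and 34.4 CPM, both within 1.5 times of the level in other mesenchyme. Of the 6 genes that defined mesenchyme, *Twist1* was the one that differed by more than 2-fold, at 205 and 178 CPM against 605 and 629 CPM. *Foxc1* was also on a list of meningeal genes. Of its 11 genes compared, *Crym* and *Foxc1* were at least 2-fold higher and *S100a6* at least 2-fold lower in both libraries. *Crym* stood at 1811 and 1827 CPM against 735 and 746 CPM.

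Over all genes with at least 100 UMIs, 11558 were compared between members and other mesenchyme. In both libraries at once, 151 genes (1.31%) were at least 2-fold higher and 213 genes (1.84%) at least 2-fold lower in the members. These totals include genes of the rule. The 4 selecting genes are among the higher. *Tfap2b*, *Matn4*, *Ddit4l*, *Tmem132c*, *Meox1*, *Scx*, *Msc* and *Twist1* are among the lower. Without the exclusion of cells with genes of the other sets, 94 of the 151 and 116 of the 213 stayed at least 2-fold different. The median log2 ratio over all compared genes was 0.01 in control and 0.01 in mutant cells. A difference between cells picked by the rule and the rest is a description of the picked cells, and no test was made of it.

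The 15 genes with the largest ratios that held in both libraries, beyond the genes of the rule, were mostly genes of low level. *Cdh10* (GRCm38 chromosome 15, 18818947 to 19014236) stood at 80.0 CPM in control members against 7.34 CPM in other mesenchyme, a log2 ratio of 3.44 (3.14 to 3.75). In the mutant library it stood at 54.3 against 5.33 CPM, a log2 ratio of 3.35 (3.01 to 3.69). *Emcn* (chromosome 3, 137341067 to 137432185) stood at 136 against 14.9 CPM in the control, a log2 ratio of 3.18 (2.97 to 3.41), and at 80.4 against 9.72 CPM in the mutant library, a log2 ratio of 3.05 (2.78 to 3.31). Both genes were far above the level in red blood cells and retinal cells, where neither passed 2.84 CPM.

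The group also held receptors, ligands and secreted proteins. *Ptger2*, the gene of a prostaglandin E2 receptor, stood at 15 and 8.27 CPM in control and mutant members, against 1.83 and 0.686 CPM in other mesenchyme. *Olfm3*, an olfactomedin gene, stood at 26.3 and 27.5 CPM against 4.79 and 3.91 CPM, and *Shisa3*, which encodes an inhibitor of Wnt and FGF receptor maturation, at 21.8 and 12.9 CPM against 3.36 and 1.94 CPM. The genes of 2 peptides were among them. *Cck*, the gene of cholecystokinin, had log2 ratios of 2.32 and 3.79, from 31 and 36 UMIs, and *Npvf* had 2.91 and 3.19, from 32 and 28 UMIs. A single cell gave 21.9% of the control *Npvf* UMIs and 19.4% of those of *Cck*, so their levels rest on few cells.

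Transcription factor genes in the group were *Zfpm2*, a cofactor of GATA factors, at 18.9 and 17.5 CPM against 3.46 and 3.67 CPM, and *Dmrta1*, at 19.2 and 19.8 CPM against 3.41 and 3.83 CPM. The remaining genes were *AA467197*, *Atp2b2*, *Milr1*, *Cntn3*, *Gm5127* and the long noncoding RNA *1700018A04Rik*. The lowest of their log2 ratios in either library was 2.27, for *Gm5127* in the mutant library.

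*1700018A04Rik* lies beside *Foxf2*, one of the genes that chose the cells. Its 5′ end is at position 31625792 of chromosome 13 on the minus strand, 23 bases from the start of *Foxf2* on the plus strand, and so falls inside the *Foxf2* promoter window printed above. It stood at 12.0 CPM in control and 6.29 CPM in mutant members, against 1.48 and 0.605 CPM in other mesenchyme, from 37 and 19 UMIs. The log2 ratios of 3.01 and 3.36 were close to the 2.84 and 3.12 of *Foxf2* itself.

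**Figure D3:**
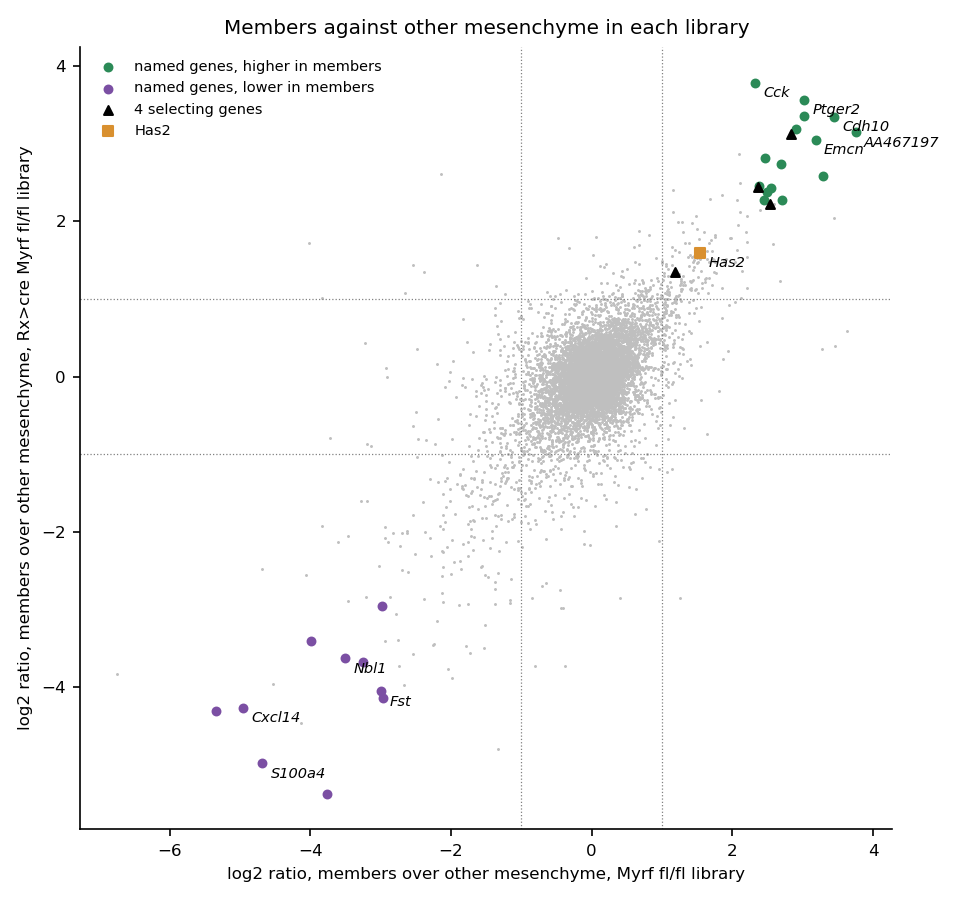
Log2 ratio of members over other mesenchyme for 11558 genes, with the control library on the horizontal and the mutant library on the vertical axis and dotted lines at 2-fold. The named genes lie far from 0 in both libraries because they were picked for that, and *Has2*, at 1.54 and 1.59, lies nearer to the centre than 3 of the 4 selecting genes.

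Genes that were lower in the members included matrix, growth factor antagonist and transcription factor genes of the other mesenchyme. *Nbl1*, which encodes a BMP antagonist, stood at 15.9 and 14.2 CPM in control and mutant members against 185 and 180 CPM in other mesenchyme, log2 ratios of -3.51 (-3.97 to -3.13) and -3.63 (-4.13 to -3.23). *Fst*, which encodes the activin antagonist follistatin, stood at 30.2 and 14.9 CPM against 243 and 252 CPM. *Cxcl14* had 3 and 4 UMIs in all members, against 40.3 and 31.8 CPM in other mesenchyme, with log2 ratios of -4.96 (-7.65 to -3.82) and -4.26 (-6.46 to -3.22).

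Some of these genes had no UMI at all in the members. *S100a4*, a calcium-binding protein gene, had 0 UMIs in both libraries and was at least 8.51-fold lower in control and at least 10.5-fold lower in mutant members, counted against a floor of 3 UMIs over the class. *Pou3f3*, a POU homeobox gene, also had 0 UMIs in both and was at least 3.13-fold and 4.23-fold lower. *Cpxm2* had 0 UMIs in control and 1 UMI in mutant members against 257 and 324 UMIs in other mesenchyme, and *Dsc3*, a desmosomal cadherin gene, 2 and 0 UMIs against 260 and 338. The other 3 of the 10 lowest genes were *Scube2*, with 2 and 4 UMIs in members against 303 and 435, *B230334C09Rik*, with 1 and 0 against 99 and 144, and *Fhod3*, with 6 and 7 against 352 and 509.

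Retinoic acid genes had no common direction. Of the 16 compared, *Aldh1a2* was higher by the rule's own choice, and *Cyp26b1*, *Crabp1* and *Stra6* were at least 2-fold lower in both libraries. The list had median log2 ratios of -0.42 in control and -0.15 in mutant cells. *Crabp1*, the gene of a retinoic acid-binding protein, stood at 67.3 and 76.7 CPM in members against 234 and 202 CPM in other mesenchyme. *Stra6*, the gene of the receptor that takes up retinol, stood at 19.5 and 13.9 CPM against 42.4 and 38.9 CPM. *Cyp26b1*, whose enzyme degrades retinoic acid, had 4 and 5 UMIs in members, at 1.30 and 1.65 CPM against 5.20 and 4.20 CPM. The receptor gene *Rarb*, at 113 and 110 CPM, was within 1.5 times of its level in other mesenchyme.

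Hedgehog response genes were among those higher in the members. *Ptch1*, which encodes the hedgehog receptor and is itself induced by the pathway, stood at 65.7 CPM (56.9 to 75.4) in control and 51.6 CPM (43.8 to 60.4) in mutant members, against 22.6 and 18.2 CPM. Its log2 ratios were 1.54 and 1.51. *Hhip*, the gene of a hedgehog-binding inhibitor, stood at 10.4 and 8.60 CPM against 3.92 and 3.03 CPM. *Gli1* had log2 ratios of 0.72 and 0.63 and did not reach 2-fold. Of the 9 genes compared, 2 were at least 2-fold higher and 0 at least 2-fold lower. *Smo*, *Gli2* and *Boc* lay between -0.25 and 0.09 on the log2 scale, *Gas1* stood at -0.71 and -0.73, and the list medians were -0.04 and -0.06. The ligand genes *Shh*, *Ihh* and *Dhh* had too few UMIs to be compared.

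Wnt genes were mostly lower. Of the 22 compared, *Lef1* was at least 2-fold higher in both libraries, and *Wnt2*, *Wnt4*, *Wnt11*, *Wif1*, *Nkd1*, *Nkd2* and *Axin2* were at least 2-fold lower. The list medians were -0.84 in control and -0.58 in mutant cells, against 0.01 over all genes. *Axin2*, a feedback inhibitor that Wnt signalling induces, stood at 7.80 and 5.29 CPM in members against 22.9 and 19.8 CPM. *Nkd1*, another induced inhibitor, stood at 17.6 and 15.5 CPM against 54.8 and 51.6 CPM. *Lef1*, which encodes a transcription factor that binds beta-catenin, went the other way, at 82.6 and 74.1 CPM against 30.4 and 26.6 CPM, with log2 ratios of 1.45 (1.23 to 1.66) and 1.48 (1.25 to 1.70).

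Notch genes were counted because *Hey1* and *Heyl* stood out, so this list was chosen after its values had been seen. *Hey1*, a repressor gene that Notch induces, stood at 42.9 and 49.3 CPM against 13.4 and 10.1 CPM, with log2 ratios of 1.68 and 2.29. *Heyl* stood at 34.1 and 18.5 CPM against 8.20 and 3.87 CPM, with log2 ratios of 2.06 and 2.27. Those were the 2 of 12 compared genes at least 2-fold higher in both libraries. The ligand gene *Jag1* had log2 ratios of 0.91 and 0.91, and *Notch2* of -0.30 and -0.34. Without the members that held 3 or more markers of another cell type, counted below, the smaller of the libraries' log2 ratios went from 2.06 to 1.40 for *Heyl*, which is more than 1.5 times lower as a fold, and from 1.68 to 1.29 for *Hey1*.

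**Figure D4:**
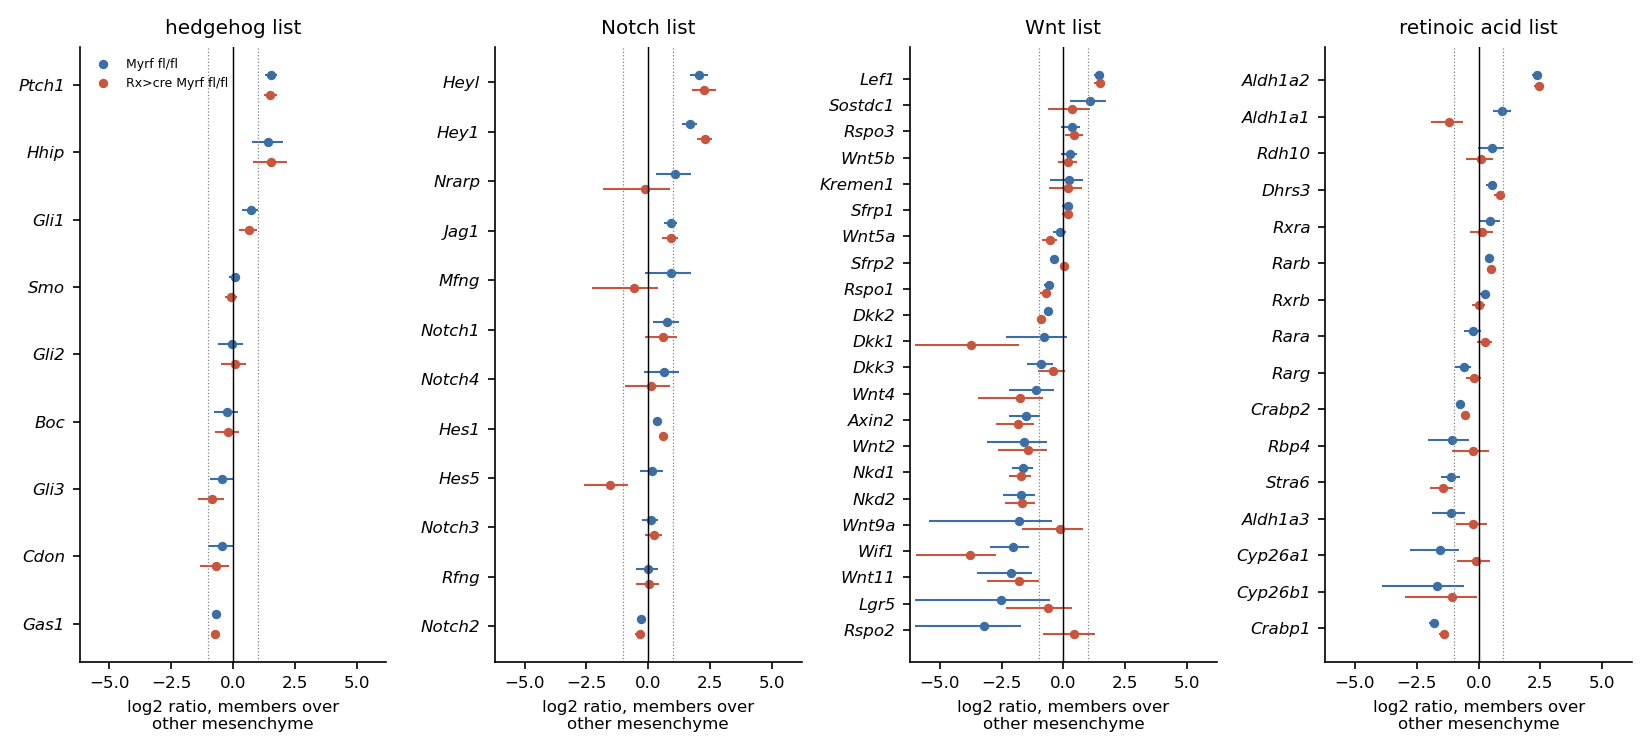
Log2 ratio of members over other mesenchyme for the compared genes of 4 lists, in the control (blue) and mutant (red) libraries, with exact 95% counting intervals cut at the axis and dotted lines at 2-fold. *Ptch1* and *Hhip* lie above 1 in both libraries and *Axin2*, *Nkd1* and *Nkd2* below -1, while *Aldh1a2* is there by the rule.

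Genes that act on vessels were unequal. Of 14 compared, *Pgf* was higher by the rule, and *Nrp2* and *Angpt1* were at least 2-fold higher in both libraries. *Nrp2*, whose product binds class 3 semaphorins and VEGF ligands, stood at 156 and 168 CPM against 48.4 and 49.7 CPM. *Angpt1*, which encodes a ligand of the endothelial receptor TIE2, stood at 41.9 and 44.7 CPM against 17.2 and 19.9 CPM. *Pdgfc* was at least 2-fold lower, though its direction turned (log2 ratio 0.11) when every cell was thinned to 3000 UMIs, and *Vegfa* was at 30.9 and 18.5 CPM against 31.3 and 27.6 CPM. The list medians were 0.34 and -0.04.

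In the matrix lists more genes were at least 2-fold lower than at least 2-fold higher in the members. This was also so over all compared genes, at 1.84% lower and 1.31% higher. Of 27 collagen genes compared, *Col11a1* and *Col18a1* were at least 2-fold higher and *Col6a1*, *Col6a2*, *Col6a3*, *Col8a1* and *Col14a1* at least 2-fold lower, with list medians of -0.09 and -0.12. *Col11a1*, a fibrillar collagen gene, stood at 121 and 130 CPM against 60.4 and 63.5 CPM. The 3 collagen VI genes stood between 12.0 and 33.4 CPM in members and between 32.1 and 74.2 CPM in other mesenchyme. Of 8 hyaluronan genes compared, *Has2* was higher, and *Cd44*, the gene of the main hyaluronan receptor, and *Tnfaip6* were at least 2-fold lower. *Cd44* stood at 7.80 and 7.61 CPM against 20.6 and 23.7 CPM, but its direction turned, to a log2 ratio of 0.59, when every cell was thinned to 3000 UMIs. *Tnc*, *Fbln5*, *Gpc6* and *Smoc2* were the genes at least 2-fold lower among 36 other matrix genes, and none was at least 2-fold higher. The medians of that list were -0.18 in control and -0.17 in mutant cells.

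Among 48 mesenchyme transcription factor genes, *Tbx18* and *Foxc1* were at least 2-fold higher in both libraries beside the selecting genes *Six2* and *Foxf2*. *Tbx18* stood at 61.1 CPM (52.7 to 70.5) and 46.0 CPM (38.7 to 54.3) against 10.1 and 9.92 CPM. The genes at least 2-fold lower were *Tfap2b* and *Meox1*, which the rule used, and *Twist1*, *Twist2*, *Msx1*, *Foxl2*, *Pitx1*, *Meox2* and *Osr2*. *Foxl2*, a forkhead gene of the eyelid mesenchyme, stood at 12.0 and 16.2 CPM against 44.3 and 44.8 CPM. *Pitx1* stood at 8.78 and 4.96 CPM against 35.2 and 27.7 CPM.

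Markers of other cell types were measured beside these results, since *Emcn* is also a marker of endothelium and *Abcc9* of pericytes. Pericytes are mural cells of small vessels. Of 8 pericyte markers 7 had a UMI, *Higd1b* was at 0 in both libraries, and the summed level was 241 CPM in control and 154 CPM in mutant members, against 122 and 104 CPM in other mesenchyme. At least 3 of these markers were found in 24 control and 15 mutant members, 11.5% and 6.94%, against 3.604% and 2.64% of other mesenchyme. Of the 7 pericyte markers compared, 6 were higher and 0 lower in members in both libraries. Their median log2 ratios were 0.97 in control and 0.59 in mutant cells. *Kcnj8* stood at 23.1 CPM in control and 2.65 CPM in mutant members. For endothelium, the summed level was 207 and 113 CPM against 67.6 and 52.0 CPM, but *Pecam1*, its defining marker, had 6 and 2 UMIs in all members. *Emcn* made up 418 of the 636 and 243 of the 341 endothelial UMIs.

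Markers of retina, RPE, neurons and macrophages were present in few members. At least 3 neural retina markers were found in 12 control and 8 mutant members, 5.74% and 3.70%, against 6.01% and 5.01% of other mesenchyme. At least 3 neuron markers were found in 5 and 2 members, 2.39% and 0.926%, against 2.25% and 3.15%. The RPE marker *Rpe65* was at 0 in members of both libraries. In each library 1 member had 3 or more RPE markers, 0.478% and 0.463%, against 0.751% and 0.506% of other mesenchyme. In all, 45 control and 26 mutant members held 3 or more markers of some other cell type, red blood cells apart. This total was not counted in other mesenchyme. These cells were then left out of the members, while cells with such markers stayed in other mesenchyme. Of 11510 genes compared, 126 were then at least 2-fold higher and 253 at least 2-fold lower than in other mesenchyme. Of those, 112 and 179 were shared with the 151 and 213 genes above. Without these cells the smaller log2 ratio of *Emcn* was 2.87 against 3.05 with them, and that of *Cdh10* 3.32 against 3.35. *Emcn* is itself one of the markers used for the removal, which was made on 1 side only, so the share due to other cell types was not measured.

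The members were not uniform. *Aldh1a2* had a UMI in 119 control members, of median depth 13885 UMIs, and none in 90, of median depth 12040 UMIs. In the mutant library 125 members of median depth 12066 UMIs had it and 91 of 12085 UMIs did not. Of 6217 genes with at least 100 UMIs in members, 15 (0.241%) were at least 2-fold higher and 3 (0.0483%) at least 2-fold lower in members with *Aldh1a2*, in both libraries. *Aldh1a2* itself is 1 of the 15 by construction.

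*Heyl* came first when genes were ordered by the smaller of the libraries' ratios. It stood at 51.2 CPM with *Aldh1a2* and 6.77 CPM without it in the control, a log2 ratio of 2.76 (1.88 to 4.17), and at 30.4 and 1.60 CPM in the mutant library, a log2 ratio of 3.69 (2.33 to 7.33). *Hey1* stood at 58.1 and 18.6 CPM in control and at 65.4 and 26.4 CPM in mutant cells. *Fabp7*, a fatty acid-binding protein gene, stood at 31.7 against 2.54 CPM and 23.1 against 4.00 CPM, and *Gucy1a1*, the gene of a subunit of the nitric oxide receptor, at 64.9 against 17.8 CPM and 44.0 against 15.2 CPM. *Peg10* and *Egfl7* completed the 6 highest, with log2 ratios from 1.23 to 1.59. A single control member held 56.6% of the control members' *Egfl7* UMIs, and a single one held 23.8% of those of *Fabp7*. When members holding markers of another cell type were left out, *Heyl* kept too few UMIs to be compared and the smaller ratio of *Hey1* was 0.98.

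Members without *Aldh1a2* had more of *Mpped2*, *Krt18* and *Col9a1*. *Mpped2*, a metallophosphoesterase gene, stood at 239 CPM without and 95.5 CPM with *Aldh1a2* in the control, and at 179 and 64.3 CPM in the mutant library. Among members with 3 or more selecting genes its direction turned, to a log2 ratio of 0.10. *Krt18*, a simple epithelial keratin gene, stood at 59.3 and 14.8 CPM and at 60.8 and 22.6 CPM. *Col9a1*, a collagen gene of cartilage and eye, stood at 94.8 and 34.8 CPM and at 102 and 49.1 CPM. *Lypd1*, *Bambi* and *Bex2* had log2 ratios from -1.07 to -0.94. A member without an *Aldh1a2* UMI had to hold other selecting genes, so the 2 groups differ in those by construction.

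Between the libraries the members differed in few genes. Of 6217 genes compared, 13 (0.209%) were at least 2-fold higher and 17 (0.273%) at least 2-fold lower in mutant than in control members, and the median log2 ratio was -0.04. Of the 13 higher genes, 6 were haemoglobin genes. At least 3 red blood cell markers were found in 122 of 209 control members (58.4%) and 194 of 216 mutant members (89.8%). The shares in other mesenchyme were 63.5% in control and 87.9% in mutant cells, so this difference was present outside the members too. The part of red blood cell RNA in the differences of the other genes was not tested. The 4 selecting genes had a median log2 ratio of -0.13, and none of the 5 label genes reached 2-fold. *Tmem98*, whose product binds MYRF, stood at 44.5 CPM in control and 40.7 CPM in mutant members. *Rax*, an eye field transcription factor gene, had 44 and 22 UMIs, at 14.3 and 7.28 CPM, and a single member held 20.5% and 22.7% of them.

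Several of the largest differences between the libraries rested on 1 cell. *Dct*, a melanin synthesis gene, had 11 UMIs in control and 108 UMIs in mutant members, a log2 ratio of 3.21 (2.42 to 4.37), and 1 cell held 94.4% of the mutant UMIs. *Stmn2*, *Nefl* and *Tubb3* are neuronal genes with log2 ratios of 2.30, 1.31 and 1.26, and 1 cell held 72.1%, 68.8% and 60.5% of their mutant UMIs. *Bpgm*, an enzyme gene abundant in red blood cells, had a log2 ratio of 1.33, with 33.2% of the mutant UMIs in 1 cell. Among the lower genes, 1 control cell held 57.8% of the *Aldh1a1*, 56.6% of the *Egfl7*, 41.8% of the *Igfbp7* and 35.9% of the *Crip2* UMIs, and their log2 ratios were -1.78, -1.17, -1.18 and -1.37.

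The others were spread over more cells. *Wdfy1*, which encodes an endosomal adaptor protein, was found in 23 control and 86 mutant members, at 8.13 and 39.7 CPM, with a log2 ratio of 2.24 (1.66 to 2.97) and no more than 8% of its UMIs in 1 cell. It was also higher in the other mesenchyme of the mutant library, with a log2 ratio of 2.52 (2.24 to 2.82), so the difference was present outside the members too. *Klf7* stood at 12.7 and 27.5 CPM and *Rmst* at 15.6 and 31.4 CPM. *Sparcl1*, which encodes a matricellular glycoprotein, was lower in the mutant library, at 33.8 CPM from 28 control members against 4.63 CPM from 11 mutant members, a log2 ratio of -2.78 (-3.79 to -2.06). *Spp1*, the gene of osteopontin, stood at 75.1 and 23.5 CPM, *Car14*, a carbonic anhydrase gene, at 24.4 and 10.3 CPM, and *Tfap2b*, one of the excluding genes, at 45.5 and 18.5 CPM. Without the exclusion, which used *Tfap2b* itself, its direction turned, to a log2 ratio of 0.10.

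**Figure D5:**
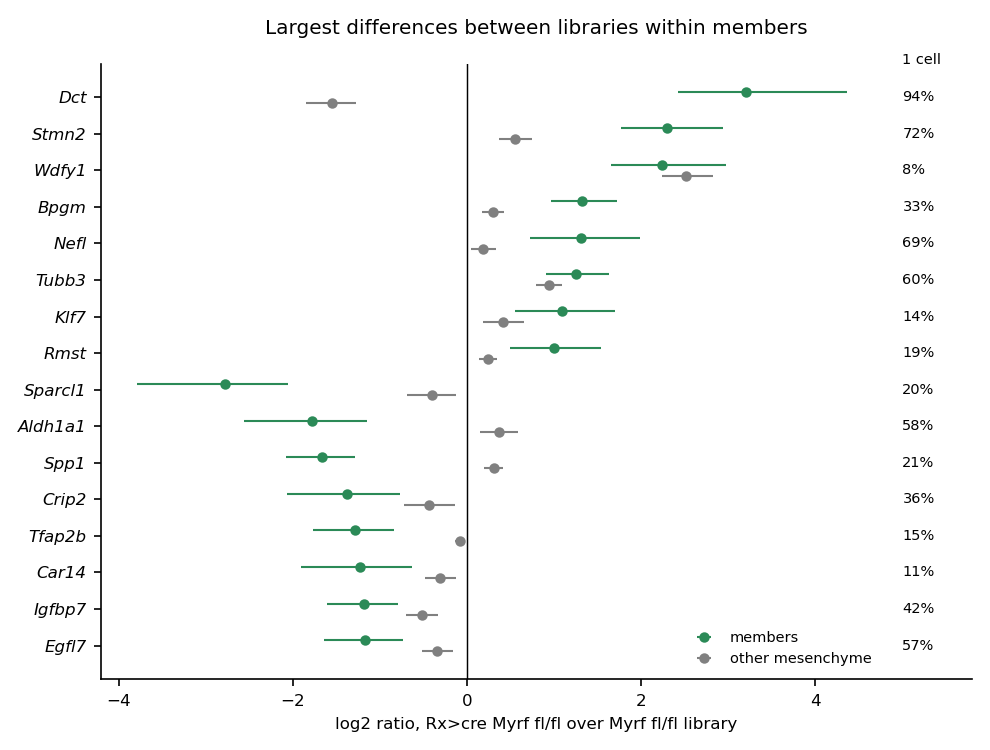
Log2 ratio of the mutant over the control library for the 16 named genes, in members (green) and in other mesenchyme (grey), with exact 95% counting intervals, and at the right the larger of the shares of a gene's UMIs held by 1 member in either library. *Dct* at 3.21 in members had 94.4% of its mutant UMIs in 1 cell, and *Wdfy1* lay at 2.24 in members and 2.52 in other mesenchyme.

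Embryos of both sexes were in both libraries, in unequal parts. By *Xist* and Y-linked genes, 88 control members were female and 76 male, and 73 mutant members were female and 93 male. Among female members alone, of 3156 genes compared, 8 were at least 2-fold higher and 10 at least 2-fold lower in the mutant library. Among male members the numbers were 8 and 1 of 3298. Haemoglobin and the markers of other cells differed between the libraries as well, and with 1 library per genotype a difference between libraries cannot be told apart from one between genotypes.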

How the data were processed

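The authors deposited raw UMI counts per gene and barcode for 2 libraries of e13.5 mouse eye cups, made with Cell Ranger 7.1.0 on mm10, and their notes also name Seurat 4.1.1. Barcodes with at least 200 genes and at most 15% mitochondrial UMIs were kept. The depth was 62720439 UMIs in the kept control cells and 74669801 in the mutant cells. The members and gene lists were chosen with earlier results of these data known. For each class, the UMIs of its cells were added up per gene, raised by 1 and divided by all UMIs of the class to give log2 ratios, each with an exact conditional binomial interval (numpy 2.4.6, scipy 1.17.1), for genes with at least 100 UMIs. The method was tested on simulated data. Named genes were the 15 highest and 10 lowest against other mesenchyme in the less different library, the 8 highest and 8 lowest between libraries, the 6 highest and 6 lowest by *Aldh1a2*, list genes at least 2-fold different in both libraries, the selecting genes, *Has2*, *Myrf*, *Tmem98* and *Rax*. Haemoglobin, sex-linked, ribosomal protein and mitochondrial genes and genes of the rule were left out of the named extremes, except that genes of the rule could be named between libraries. Retinal cells had at least 3 retinal progenitor genes (such as *Rax*, *Six6*, *Pax6* and *Lhx2*) and at most 1 mesenchyme gene, and red blood cells over 50% haemoglobin. A few genes are not reported here and were left out of the lists counted. Doublets were kept, and Scrublet (scanpy 1.11.5) marked them for one of the alternatives, which also changed the limits on UMIs, mitochondrial share and selecting genes, the depth, the scaling and the gene minimum. Gene positions are those of GENCODE on GRCm38, the assembly of mm10.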

Additional observations from a re-analysis of the deposited data

Results flagged for a closer look

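For 3 of the named genes, the mutant library lay above the control in members and below it in other mesenchyme, or the reverse, with both counting intervals clear of 0. *Dct* had a log2 ratio of 3.21 in members and -1.55 (-1.85 to -1.27) in other mesenchyme, with 94.4% of the mutant members' UMIs in 1 cell. *Aldh1a1*, a retinaldehyde dehydrogenase gene, had -1.78 in members and 0.37 (0.15 to 0.59) in other mesenchyme, with 57.8% of the control members' UMIs in 1 cell. *Spp1* had -1.66 in members and 0.31 (0.20 to 0.41) in other mesenchyme, with 20.8% of the control members' UMIs in 1 cell. With 1 library per genotype the difference between the classes was not tested.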

How the results depend on the processing

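The share of mesenchyme that were members stayed lower in the mutant library under every alternative that gave a value, from 0.701 to 0.947 times the control share. An upper limit of 2000 UMIs left 0 members, so it gave no value. With a mitochondrial limit of 5%, the genes at least 2-fold higher against other mesenchyme went from 151 of 11558 compared to 97 of 10856. With every cell thinned to 3000 UMIs, which left 49 and 54 members, 5430 genes were compared. The numbers were then 55 higher and 60 lower, of which 18 and 36 were among the 151 and 213 genes above. Between libraries, the 13 higher and 17 lower of 6217 genes became 8 and 11 of 6078 without doublets marked by Scrublet. They were 8 and 11 of 4393 with 3 or more selecting genes. In female cells they were 8 and 10 of 3156, and in male cells 8 and 1 of 3298. With a minimum of 50 UMIs they were 26 and 51 of 8412, and after thinning 0 and 0 of 425. Without the exclusion of other sets there were 28 higher genes of 9071 compared. Of the lower genes there were 9 of 4929 with the limit of 5% and 7 of 5066 with an upper limit of 20000 UMIs. There were 11 of 6217 with the mean of each cell's CPM, and 6 of 5385 without members holding markers of another cell type. The last setting was chosen after seeing the data, as was leaving out members over 1% haemoglobin. For single genes, with a value only where 100 UMIs remained, the sign turned for *Pdgfc* (0.11) and *Cd44* (0.59) after thinning, for *Gdf5* (0.32), *Cryab* (0.70) and *Tfap2b* between libraries (0.10) without the exclusion, and for *Mpped2* by *Aldh1a2* (0.10) with 3 or more selecting genes. The cause was not tested. Of 1207 values for 99 genes against other mesenchyme, 1203 kept their direction. These genes were picked for their difference in the same cells or were used by the rule. A kept direction therefore largely follows from that choice and is not separate support. Scrublet marked 0.924% of control and 1.16% of mutant cells, and 5 members in each library. No paired analysis was possible because each genotype has 1 library and the results come from no test.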

Other observations

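Genes of glycolysis and hypoxia were lower in members. Their summed level was 4160 CPM in control and 4391 CPM in mutant members, against 5966 and 5776 CPM in other mesenchyme. Of 19 genes compared, 15 were lower in both libraries, against 3527 of all 11558 genes, though only *Pfkp* by 2-fold or more, and the medians were -0.51 and -0.39. *Ldha*, the gene of a lactate dehydrogenase subunit, stood at 366 and 379 CPM against 695 and 649 CPM.

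Genes of axon guidance were unequal. Of 27 compared, 3 were at least 2-fold higher and 4 at least 2-fold lower in both libraries. The higher genes were *Nrp2*, *Epha3* and *Plxnd1*, a semaphorin receptor gene with log2 ratios of 1.70 and 1.18. *Epha3*, an ephrin receptor gene, stood at 94.6 and 81.0 CPM in members against 44.8 and 40.6 CPM, while *Sema3a*, a repellent ligand gene, stood at 15.3 and 18.9 CPM against 50.6 and 53.2 CPM. *Sema3c*, *Sema3e* and *Robo2* were also at least 2-fold lower in both libraries. Of 36 G2/M genes 20 were higher and 1 was lower in members in both libraries, against 3916 and 3527 of all 11558 genes, and none differed by 2-fold. Their summed level was 4188 CPM in control and 3423 CPM in mutant members, against 3644 and 3365 CPM in other mesenchyme. The mixed cells had more than the members, at 4293 and 3533 CPM, and the *Tfap2b* class had 3589 CPM in each library. The *Scx* and *Meox1* class and the cells with no set lay between 2550 and 3300 CPM. Of 27 S phase genes 4 were higher and 10 lower in both, again none by 2-fold. *Mki67* had a UMI in 12.9% of control and 11.6% of mutant members at 3000 UMIs per cell, against 12.1% and 10.1% of other mesenchyme.

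The sex make-up differed between the classes of mesenchyme within a library. Of control cells assigned to 1 sex, 53.7% (45.7 to 61.5%) of members were female, against 83.4% (76.5 to 89.0%) of the *Scx* and *Meox1* class. In the mutant library the shares were 44.0% (36.3 to 51.9%) and 48.8% (41.7 to 55.9%).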
